A study of Mus musculus with 13 samples.

Results

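The genes described here are 10 genes of MHC class I antigen processing, B2m, Tap1, Tap2, Tapbp, Psmb8, Psmb9, Psmb10, Psme1, Nlrc5 and Erap1, out of 19938 genes measured in mouse rectum. They were chosen by name, as genes whose products cut, carry, trim or load peptides for class I molecules or switch the pathway on. No rule on values was used, but earlier results of these data were known when they were chosen. Each gene is represented by the array's transcript cluster that names it alone and, where there are several, has the highest mean over 13 arrays. All 10 were measured, and none was left out by a filter.

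The 13 Affymetrix Mouse Gene 1.0 ST arrays each measured RNA of 1 piece of rectum. There were 5 adenocarcinomas (53, 60, 60, 64 and 80 weeks old, 2 from females and 3 from males) and 4 pieces of inflamed rectal mucosa (53, 60, 60 and 64 weeks, 1 female and 3 males), both cut from rectal prolapses of α6fl/fl Villin-Cre mice. In these mice Cre driven by the Villin promoter deletes α6 integrin in the intestinal epithelium, so that other cells of the tissue keep the gene. The 4 pieces of normal rectal mucosa (53, 60, 64 and 70 weeks, 2 females and 2 males) came from control mice. The genotype field of the labels gives α6fl/fl Villin-Cre for these as well, while other fields call them controls. Tumour and inflamed mucosa were dissected from cryosections of 50 to 100 µm after a pathologist had read stained sections of 5 µm, and normal mucosa was scraped, so that tissue state, genotype and way of collection cannot be told apart in either comparison with normal mucosa. The labels do not say whether 1 mouse gave both the tumour and the inflamed piece of a number, and p-values measure only the spread between these pieces.

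Class I molecules show fragments of a cell's own proteins to CD8 T cells. The proteasome cuts proteins into peptides, the TAP transporter moves the peptides into the endoplasmic reticulum, aminopeptidases trim them there, and tapasin helps to place them on a heavy chain paired with β2-microglobulin. Interferon gamma is known to raise most genes of this pathway and to replace the catalytic subunits of the proteasome with those of the immunoproteasome, and loss of the pathway is a known route by which tumour cells escape CD8 T cells.

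Values are deposited log2 RMA expression values, and differences are on the log2 scale. Replicates are listed in the order 1, 2, 3, 4 and 6 for tumours, 1 to 4 for inflamed mucosa, and 1, 2, 4 and 6 for normal mucosa. A gene was called when its Benjamini-Hochberg adjusted p, over all 19938 genes in a limma fit of the 3 groups, was below 0.05. In whole tissue, fewer cells of a type and less RNA per cell cannot be told apart. Epithelial identity was met in all groups: the mean level of 9 pan-epithelial markers lay between 11.97 and 12.01 in tumours, between 11.74 and 11.90 in inflamed mucosa and between 12.05 and 12.21 in normal mucosa. Normal mucosa 1 stood apart in its leukocyte, T cell and NK cell markers, and values that it moves most are also given without it.

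In tumours 7 of the 10 genes were lower than in normal mucosa and none was higher, with B2m, both TAP genes, tapasin and the 3 immunoproteasome subunits among them. Of all genes, 19.4% were called lower and 16.4% higher in this comparison. The median difference of the 10 genes was -0.87, against -0.10 over all genes. Inflamed mucosa was lower than normal mucosa in 4 of the 10 (Tap2, Tapbp, Psmb8 and Psmb10) and higher in none, where 13% of all genes were called lower and 13.7% higher, with a median of -0.61 against -0.09 over all genes. Tumours were lower than inflamed mucosa in 1 of the 10, B2m, in a comparison that called 4.21% of all genes lower, and the median difference was -0.21 against -0.01. The comparisons of tumour and of inflamed mucosa with normal mucosa share the 4 normal arrays. Without normal mucosa 1, the same 7 and the same 4 genes were called lower, with 16.5% of all genes lower in tumours and 10.4% lower in inflamed mucosa. The medians of the 10 genes then came to -0.66 in tumours and -0.23 in inflamed mucosa, against -0.10 over all genes in each comparison.

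**Figure D1:**
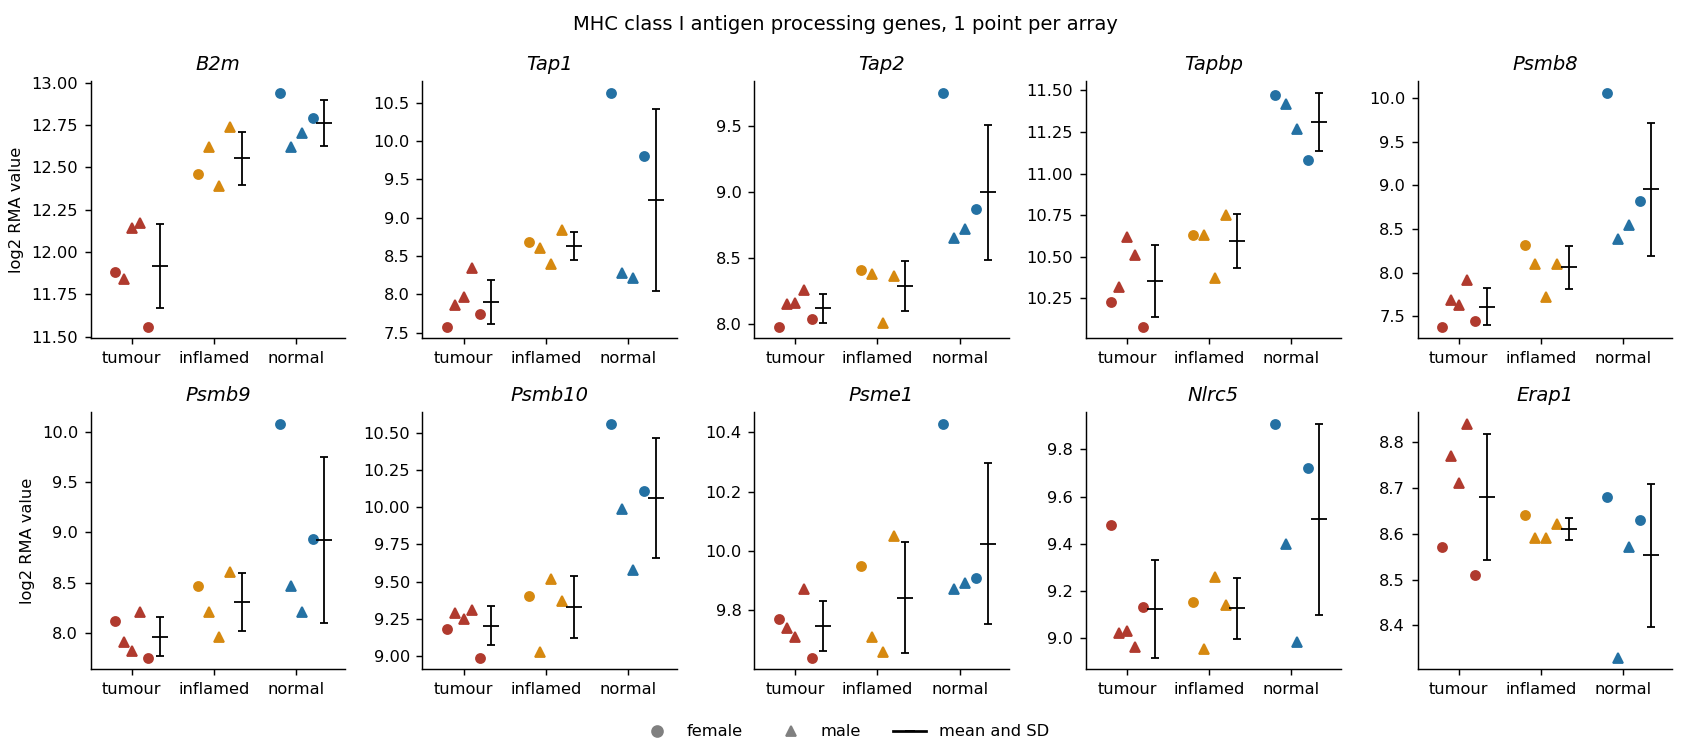
Deposited log2 RMA value of each of the 10 genes in tumours (5 arrays), inflamed mucosa (4) and normal mucosa (4), each panel with its own scale; points are arrays (circles female, triangles male) and the bar gives the mean and SD. All tumour values lie below all normal values for B2m, Tap2, Tapbp, Psmb8, Psmb9 and Psmb10. The share of all measured genes that separate in this way was not computed, so whether this is unusual cannot be told. For Tap1, 2 female normal arrays (10.63 and 9.81) lie far above the others.

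**Figure D2:**
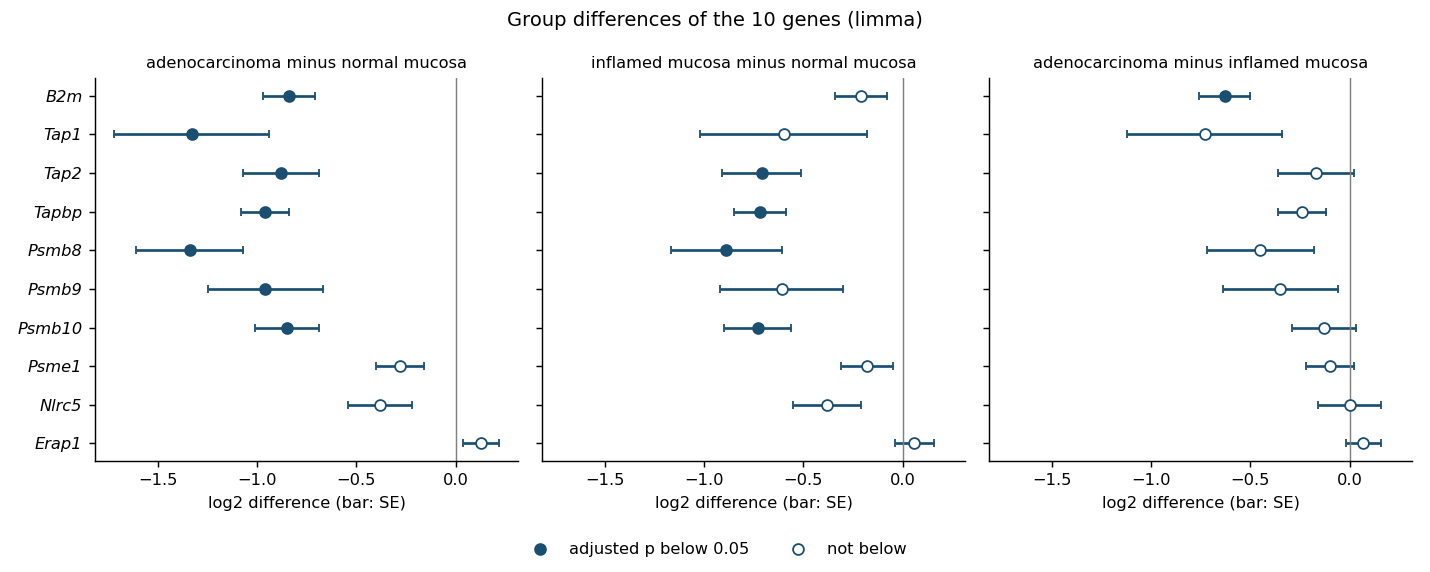
Log2 difference and its standard error for the 10 genes in 3 comparisons, from the limma fit; filled points have an adjusted p below 0.05. The filled points number 7 for adenocarcinoma minus normal mucosa, 4 for inflamed mucosa minus normal mucosa and 1, B2m, for adenocarcinoma minus inflamed mucosa.

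B2m, which encodes β2-microglobulin, the light chain that every class I heavy chain needs to reach the cell surface, was the gene of the 10 in which tumours were called lower than both other groups. It was measured at 11.88, 11.84, 12.14, 12.17 and 11.56 in tumours, at 12.46, 12.62, 12.39 and 12.74 in inflamed mucosa, and at 12.94, 12.62, 12.70 and 12.79 in normal mucosa. Every tumour lay below every inflamed and every normal array, while inflamed and normal values overlapped. The tumour minus normal difference, with its SE, was -0.84 ± 0.13 on the log2 scale (limma, n = 5 and 4, adjusted p = 0.000187). Tumour minus inflamed mucosa came to -0.63 ± 0.13 (limma, n = 5 and 4, adjusted p = 0.00775). The inflamed minus normal value of -0.21 ± 0.13 did not pass (limma, n = 4 and 4, adjusted p = 0.23).

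The 250 bases before the start of B2m on chromosome 2 are shown because B2m carries the tumour difference from both tissues, and capitals mark a match to the core of the interferon-stimulated response element (ISRE), searched as GAAA, any 2 bases and GAAA again on both strands. The sequence is from RefSeq, chr2:122147437-122147686 of GRCm38.p6, plus strand.
B2m promoter: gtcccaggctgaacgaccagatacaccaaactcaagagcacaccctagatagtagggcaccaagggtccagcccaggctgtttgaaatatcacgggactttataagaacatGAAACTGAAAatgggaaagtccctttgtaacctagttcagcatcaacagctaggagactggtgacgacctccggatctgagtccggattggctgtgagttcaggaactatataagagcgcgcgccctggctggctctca
The match begins 139 bases before the start. Promoter windows of 300 bases (250 before the start and 50 after it) were found for 8 of the 10 genes, and 3 of them, B2m, Psme1 and Erap1, held such a match, against 3.44% of 32851 mouse windows.

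Tapbp encodes tapasin, which bridges class I molecules to the TAP transporter. Its values were 10.23, 10.32, 10.62, 10.51 and 10.08 in tumours, 10.63, 10.63, 10.37 and 10.75 in inflamed mucosa, and 11.47, 11.42, 11.27 and 11.08 in normal mucosa. All 9 tumour and inflamed arrays lay below all normal arrays, and the normal arrays of Tapbp were close together. Tapbp fell by 0.96 in tumours (difference -0.96 ± 0.12, limma, n = 5 and 4, adjusted p = 5.63e-05) and by 0.72 in inflamed mucosa (-0.72 ± 0.13, limma, n = 4 and 4, adjusted p = 0.0013). Tumour minus inflamed mucosa was -0.24 ± 0.12 and did not pass (limma, adjusted p = 0.315). Tapbpl, a tapasin relative that edits the peptides bound by class I molecules and is not one of the 10, was also lower in tumours (-1.07 ± 0.19, limma, adjusted p = 0.000629) and in inflamed mucosa (-0.84 ± 0.20, limma, adjusted p = 0.00719).

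Tap1 and Tap2 encode the 2 chains of the peptide transporter. Tap1 was measured at 7.58, 7.86, 7.97, 8.35 and 7.74 in tumours, at 8.68, 8.60, 8.40 and 8.84 in inflamed mucosa, and at 10.63, 8.28, 8.22 and 9.81 in normal mucosa. The normal arrays split into 2 that lay far above all others and 2 that lay below every inflamed array and overlapped the tumours. Tap1 fell by 1.33 in tumours against normal mucosa (-1.33 ± 0.39, limma, n = 5 and 4, adjusted p = 0.0186), by 0.87 without normal mucosa 1, and lost the call without normal mucosa 6 (-1.14, limma, adjusted p = 0.0521). Inflamed minus normal mucosa was -0.60 ± 0.42 and did not pass (limma, adjusted p = 0.278), and it was -0.14 without normal mucosa 1. Every tumour value of Tap1 lay below every inflamed value, and the difference of -0.73 ± 0.39 did not pass in the fit of 3 groups (limma, adjusted p = 0.351), whose spread includes the normal arrays. It passed in the 4 same-numbered pairs alone with the number as a block (-0.69, limma, adjusted p = 0.014). There 2 of the 10 genes, B2m and Tap1, were called lower, against 5.89% of all genes.

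Tap2 was measured at 7.98, 8.15, 8.16, 8.26 and 8.04 in tumours, at 8.41, 8.38, 8.01 and 8.36 in inflamed mucosa, and at 9.75, 8.65, 8.72 and 8.87 in normal mucosa. Normal values lay above all 9 other values, with normal mucosa 1 the highest. Tap2 fell by 0.88 in tumours (-0.88 ± 0.19, limma, n = 5 and 4, adjusted p = 0.00248) and by 0.71 in inflamed mucosa (-0.71 ± 0.20, limma, n = 4 and 4, adjusted p = 0.0175). Without normal mucosa 1 the differences of Tap2 were -0.63 and -0.46, and both kept the call. The inflamed call of Tap2 was lost with those 2 groups alone in the fit (limma, adjusted p = 0.0557).

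Psmb9, Tap1, Psmb8 and Tap2 follow each other in that order in the MHC on chromosome 17, where Tapbp also lies. Psmb9 and Tap1 start head to head from a shared stretch, which is printed whole because 2 of the lowered genes begin at its ends. It is RefSeq sequence, chr17:34187331-34187555 of GRCm38.p6, plus strand, with Psmb9 to its left and Tap1 to its right, and capitals mark a GC box, GGGCGG read on the minus strand.
Psmb9 to Tap1: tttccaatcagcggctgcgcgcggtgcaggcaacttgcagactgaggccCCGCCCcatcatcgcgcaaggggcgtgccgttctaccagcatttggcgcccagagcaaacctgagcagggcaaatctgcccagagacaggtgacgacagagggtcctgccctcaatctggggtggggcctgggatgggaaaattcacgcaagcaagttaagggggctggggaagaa
This stretch is 225 bases long and holds no match to the ISRE core. Windows of 5 of the 8 genes (Tap1, Tapbp, Psmb9, Psme1 and Erap1) held a GC box, against 35.7% of all windows. The windows of Tap1 and Psmb9 overlap and hold the same box, the one printed above, which is therefore counted for both genes. The gamma-activated site, searched as TTCNNNGAA on both strands, matched once in the window of Psmb8, 97 bases before its start, and in 8.3% of all windows.

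Psmb8, Psmb9 and Psmb10 encode the catalytic subunits of the immunoproteasome. Psmb8 was measured at 7.38, 7.68, 7.63, 7.92 and 7.44 in tumours, at 8.32, 8.10, 7.72 and 8.10 in inflamed mucosa, and at 10.06, 8.39, 8.54 and 8.82 in normal mucosa. Each normal value was above all tumour and inflamed values, and normal mucosa 1 was more than 1 unit above the next. Psmb8 fell 2.54-fold in tumours (-1.34 ± 0.27, limma, n = 5 and 4, adjusted p = 0.00177), and the difference was -0.97 without normal mucosa 1. In inflamed mucosa it fell by 0.89 (-0.89 ± 0.28, limma, n = 4 and 4, adjusted p = 0.0337), with -0.52 without normal mucosa 1, a call that was lost under the replicate block over all arrays (limma, adjusted p = 0.0599), with sex as a covariate, with the 2 groups alone and without inflamed mucosa 2, 3 or 4 (limma, adjusted p from 0.0521 to 0.0811).

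Psmb9 was measured at 8.12, 7.91, 7.82, 8.21 and 7.76 in tumours, at 8.47, 8.21, 7.96 and 8.61 in inflamed mucosa, and at 10.08, 8.47, 8.21 and 8.94 in normal mucosa. The lowest normal array only just exceeded the highest tumour, and inflamed and normal values overlapped. Psmb9 fell by 0.96 in tumours (-0.96 ± 0.29, limma, n = 5 and 4, adjusted p = 0.0206), by 0.57 without normal mucosa 1, and the inflamed minus normal difference of -0.61 ± 0.31 did not pass (limma, adjusted p = 0.144) and was -0.22 without that array. Psmb10 was measured at 9.18, 9.29, 9.25, 9.31 and 8.99 in tumours, at 9.40, 9.03, 9.52 and 9.37 in inflamed mucosa, and at 10.56, 9.99, 9.58 and 10.11 in normal mucosa. Its normal values lay above all others, and tumour and inflamed values overlapped. Psmb10 fell by 0.85 in tumours (-0.85 ± 0.16, limma, adjusted p = 0.00111) and by 0.73 in inflamed mucosa (-0.73 ± 0.17, limma, adjusted p = 0.00684). None of the 3 subunits passed between tumour and inflamed mucosa (differences -0.45, -0.35 and -0.13, limma, adjusted p from 0.415 to 0.793).

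Each of these subunits replaces a constitutive one when the immunoproteasome is built, Psmb8 for Psmb5, Psmb9 for Psmb6 and Psmb10 for Psmb7. The constitutive subunits moved the other way in tumours against normal mucosa: Psmb5 rose by 0.36 ± 0.10 (limma, adjusted p = 0.0121), Psmb6 by 0.55 ± 0.13 (limma, adjusted p = 0.00531) and Psmb7 by 0.31 ± 0.08 (limma, adjusted p = 0.00662). The difference of log2 values between the partners was taken within each array and compared between groups by exact permutation (two-sided), with p-values adjusted for the 9 tests made. It shows unequal change only, since levels of different probes are not comparable.

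Psmb8 minus Psmb5 lay between -4.70 and -4.12 in the 5 tumours, between -4.08 and -3.46 in the 4 inflamed arrays and between -3.10 and -1.43 in the 4 normal arrays, so that none of the groups overlapped. The tumour minus normal difference of this measure was -1.70 (exact permutation p = 0.0159, adjusted 0.0286), that of inflamed minus normal mucosa -1.07 (exact p = 0.0286, adjusted 0.0367) and that of tumour minus inflamed mucosa -0.64 (exact p = 0.0159, adjusted 0.0286). Psmb9 minus Psmb6 lay between -2.42 and -1.87 in tumours, between -1.50 and -0.96 in inflamed mucosa and between -1.41 and 0.65 in normal mucosa. Tumours stood below both other groups in Psmb9 minus Psmb6, by 1.51 below normal and 0.83 below inflamed mucosa (differences -1.51 and -0.83, exact p = 0.0159 and adjusted 0.0286 for each), while inflamed and normal mucosa overlapped (-0.68, exact p = 0.2). Psmb10 minus Psmb7 lay between -1.06 and -0.66 in tumours, between -0.84 and -0.36 in inflamed mucosa and between -0.24 and 0.78 in normal mucosa. For this pair tumours and inflamed mucosa were both below normal mucosa (-1.17, exact p = 0.0159, adjusted 0.0286, and -0.91, exact p = 0.0286, adjusted 0.0367), and tumour minus inflamed mucosa was -0.26 (exact p = 0.0635, adjusted 0.0714). With 5 or 4 against 4 arrays these p-values are the smallest possible where groups do not overlap, and the tests treat tumour and inflamed arrays as independent.

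**Figure D3:**
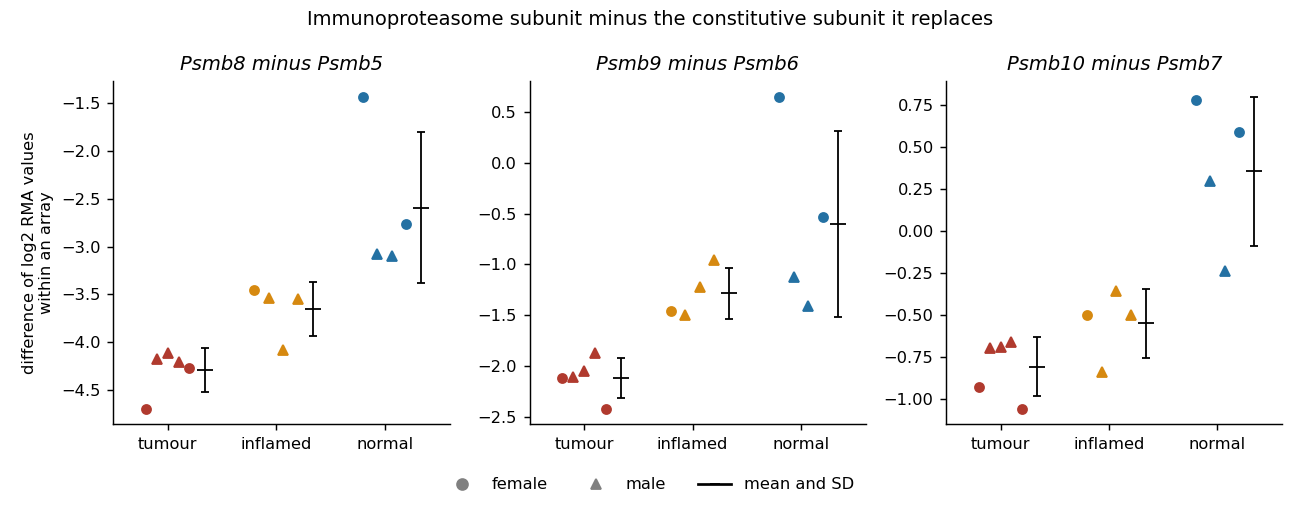
Difference of log2 RMA values within each array between an immunoproteasome subunit and the constitutive subunit it replaces, for tumours (5 arrays), inflamed mucosa (4) and normal mucosa (4); points are arrays (circles female, triangles male) and the bar gives the mean and SD. Tumours lie below normal mucosa in all 3 panels, and normal mucosa 1 is the highest array in each (-1.43, 0.65 and 0.78).

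Psme1 encodes the alpha chain of PA28, a ring that opens the proteasome to give more class I peptides. Its values were 9.77, 9.74, 9.71, 9.87 and 9.64 in tumours, 9.95, 9.71, 9.66 and 10.05 in inflamed mucosa, and 10.43, 9.87, 9.89 and 9.91 in normal mucosa. Apart from normal mucosa 1, the 3 groups lay close together. The tumour minus normal difference of Psme1 was -0.28 ± 0.12 and did not pass (limma, n = 5 and 4, adjusted p = 0.0871), and it was -0.14 without normal mucosa 1. Psme2, the partner chain of Psme1, fell by 0.48 in tumours (-0.48 ± 0.16, limma, adjusted p = 0.0293), and Psme3, which forms a separate ring in the nucleus, rose by 0.24 ± 0.08 in tumours (limma, adjusted p = 0.0437) and by 0.27 ± 0.09 in inflamed mucosa (limma, adjusted p = 0.0392). Without normal mucosa 1 these calls were lost, with -0.35 for Psme2 in tumours (limma, adjusted p = 0.0889) and with 0.21 and 0.24 for Psme3 in tumours and in inflamed mucosa (limma, adjusted p = 0.105 and 0.091).

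Erap1 encodes the aminopeptidase of the endoplasmic reticulum that trims peptides to the length class I molecules hold. It was measured at 8.57, 8.77, 8.71, 8.84 and 8.51 in tumours, at 8.64, 8.59, 8.59 and 8.62 in inflamed mucosa, and at 8.68, 8.33, 8.57 and 8.63 in normal mucosa. All 13 values fell within a narrow range and the groups overlapped. Erap1 was the 1 gene of the 10 whose tumour minus normal difference was above 0 (0.13 ± 0.09, limma, adjusted p = 0.273), and it did not pass in any of the 3 comparisons. Its sign turned when arrays were centred on the median of the named genes (-0.01). The windows of Psme1 and Erap1 also hold the ISRE core, and these matches are shown because neither gene was called in any of the 3 comparisons over both sexes. Capitals mark the match, read on the minus strand, in RefSeq sequence of GRCm38.p6, plus strand, chr14:55578493-55578522 and chr13:74639839-74639868.
Psme1 ISRE: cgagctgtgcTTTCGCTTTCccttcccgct
Erap1 ISRE: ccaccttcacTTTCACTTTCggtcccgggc

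Nlrc5 encodes the transactivator that binds class I promoters and is known to drive B2m, Tap1, Psmb9 and the class I heavy chains. Its highest-mean cluster, 10574100, was measured at 9.48, 9.02, 9.03, 8.96 and 9.13 in tumours, at 9.15, 8.95, 9.26 and 9.14 in inflamed mucosa, and at 9.91, 9.40, 8.98 and 9.72 in normal mucosa. All 3 groups overlapped. The differences from normal mucosa were -0.38 ± 0.16 in tumours (limma, adjusted p = 0.0851) and -0.38 ± 0.17 in inflamed mucosa (limma, adjusted p = 0.114), and that between tumour and inflamed mucosa was 0.00 ± 0.16. The tumour difference of Nlrc5 passed without tumour 1 (-0.47, limma, adjusted p = 0.039), and without normal mucosa 4 both differences came to -0.55 and passed (limma, adjusted p = 0.00935 in tumours and 0.0157 in inflamed mucosa).

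The array holds 19 clusters that name Nlrc5 alone, with means between 5.15 and 9.24. All 19 were below 0 in tumours against normal mucosa, from -1.19 to -0.34 with a median of -0.76, and 6 of them were called lower. In inflamed mucosa all 19 were also below 0, from -0.86 to -0.24 with a median of -0.42, and 1 was called lower. Between tumours and inflamed mucosa, 17 of 19 were below 0 and none was called. Cluster 10574102, the next brightest, read 6.93, 7.21, 7.36, 7.51 and 6.95 in tumours, 7.85, 7.71, 7.57 and 8.16 in inflamed mucosa, and 7.16, 6.89 and 8.87 in normal mucosa 2, 4 and 6, with normal mucosa 1 above them all. It had the 2 high and 2 low normal arrays of Tap1, with which it correlated at 0.97 over 13 arrays, against 0.70 for cluster 10574100. Normal mucosa 1 was the highest normal array in each of the 19 clusters, and the shared sign of the inflamed differences leans on it. Inflamed arrays of cluster 10574102 lay above normal mucosa 2 and 4 and below normal mucosa 6. In cluster 10574155 all inflamed arrays lay below all normal arrays. Counts and medians of the 19 clusters were not computed without normal mucosa 1. Transcripts absent by sex (Xist in males and Y-linked genes in females) read up to 5.57 on these arrays, so that the dimmest clusters of Nlrc5 have means no higher than that level.

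**Figure D4:**
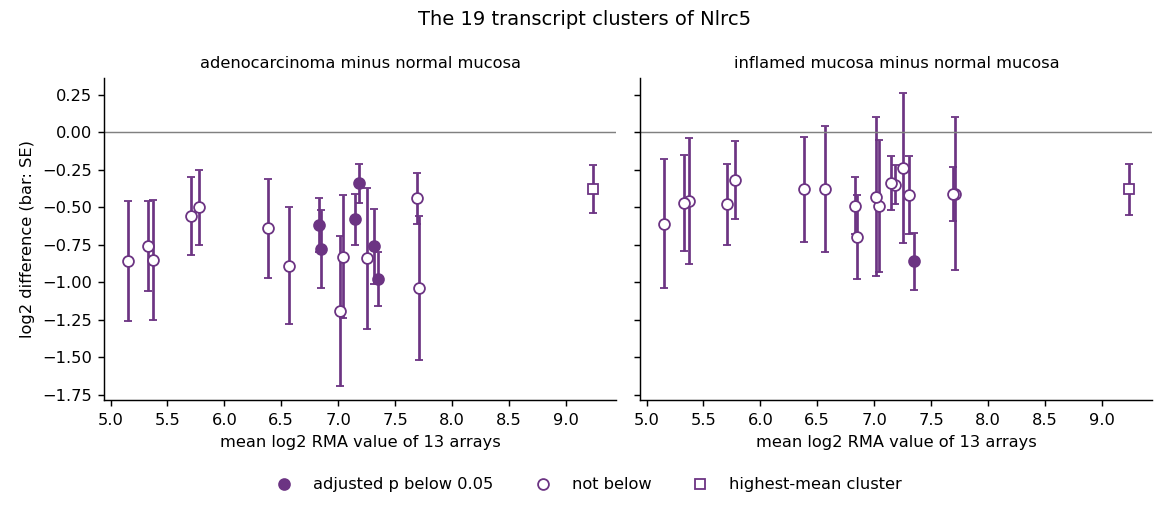
Log2 difference and standard error of each of the 19 transcript clusters of Nlrc5 against its mean log2 RMA value over 13 arrays, for adenocarcinoma minus normal mucosa and inflamed mucosa minus normal mucosa; filled points have an adjusted p below 0.05 and the square is the cluster used for the gene. All points lie below 0, and the brightest cluster (-0.38 in both comparisons) is among the smaller differences in tumours.

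The normal arrays varied among themselves in most of these genes, along the sex labels and most of all in Tap1. Normal females averaged 10.22 and normal males 8.25 in Tap1 (n = 2 and 2). In a limma fit of group by sex, Tap1 was higher in normal females than in normal males by 1.97 ± 0.25 (adjusted p = 0.013), 1 of 10 genes in a contrast that called 0.115% of all genes higher. This call of Tap1 was lost with array weights (1.92, limma, adjusted p = 0.0598) and without normal mucosa 2 or 4 (2.00 and 1.94, limma, adjusted p = 0.126 and 0.0786). Age and animal differ along with sex among these 4 mice, and their part was not tested.

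Within females, 7 of the 10 genes were lower in tumours than in normal mucosa, where 6.42% of all genes were called lower, and Tap1 differed by -2.56 ± 0.25 (limma, n = 2 and 2, adjusted p = 0.000159). Within males, only B2m (-0.61 ± 0.15, limma, adjusted p = 0.0142) and Tapbp (-0.86 ± 0.16, limma, adjusted p = 0.00331) of the 10 were called lower (n = 3 and 2), against 17.4% of all genes, and Erap1 was called higher (0.32 ± 0.10, limma, adjusted p = 0.0399), against 12.4%. Tap1 came to -0.19 ± 0.23 in males, with an adjusted p of 0.539 in limma. The test of the difference itself, tumour minus normal in females minus the same in males, called 0 of the 10 in limma, and 1 gene in all was called lower (0.00502%). The largest difference between the sexes was that of Tap1 (-2.37 ± 0.34, limma, adjusted p = 0.0668), which passed without normal mucosa 1 (-1.96, limma, adjusted p = 0.0325) and without normal mucosa 6 (-2.78, limma, adjusted p = 0.0014), and 7 of the 10 had an unadjusted p below 0.05, as did 1931 of all genes. B2m and Tapbp were thus called lower in tumours within each sex, though the male count of 2 of the 10 lies close to the 17.4% of all genes called lower there. In inflamed against normal mucosa, 1 of the 10 was called in females, Tap1, which was lower (-1.54, limma, n = 1 and 2, adjusted p = 0.0291), against 2.34% of all genes called in either direction. In males 1 of the 10 was called, Tapbp, which was lower (-0.77, limma, n = 3 and 2, adjusted p = 0.00762), against 19.9% of all genes called in either direction. The inflamed calls of Tap2, Psmb8 and Psmb10 did not pass within either sex, and that of Tapbp did not pass in females, where the lone inflamed array is assumed to vary like the other groups.

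**Figure D5:**
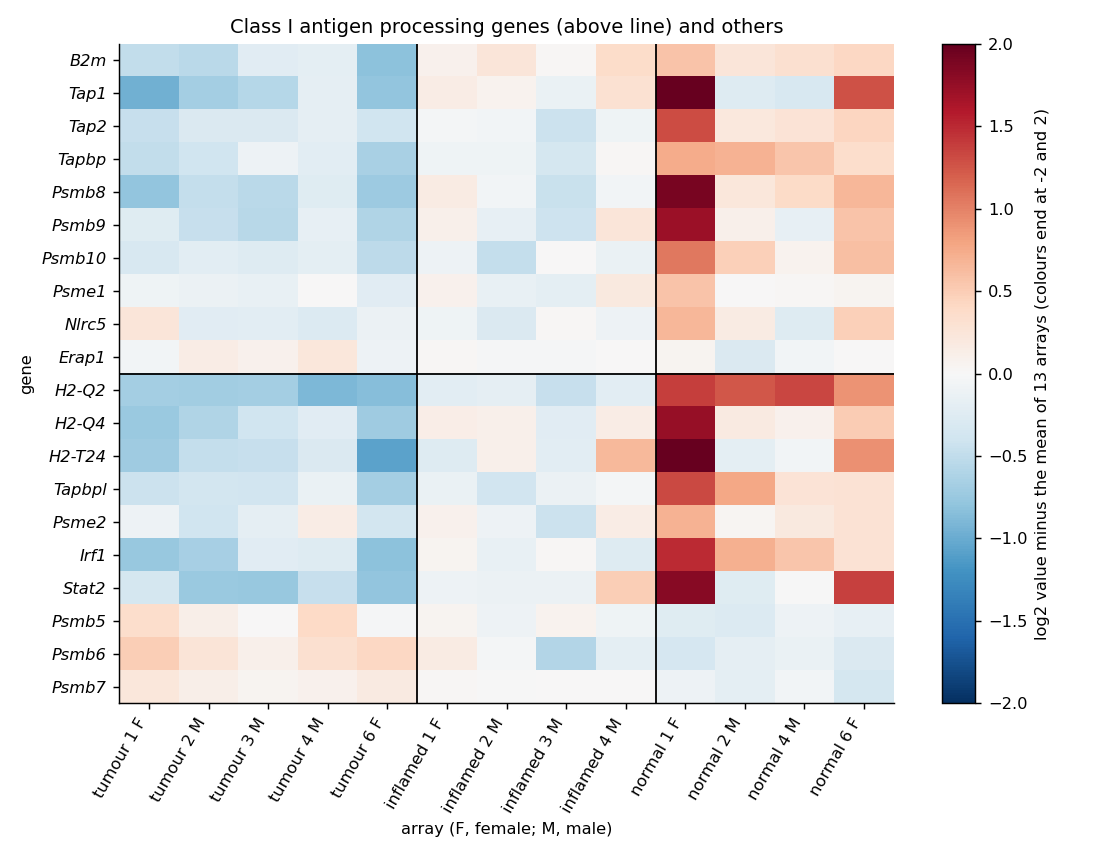
Log2 RMA value minus the gene's mean over 13 arrays, by array (tumours, inflamed mucosa, normal mucosa; F female, M male), for the 10 genes above the line and 10 related genes under it; colours end at -2 and 2. Normal mucosa 1 is the reddest column, normal mucosa 6 follows it in Tap1 and Stat2, and Psmb5, Psmb6 and Psmb7 run the other way.

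Markers of cytotoxic lymphocytes moved with normal mucosa 1. The mean level of 9 T cell markers lay between 6.25 and 6.55 in tumours, between 6.58 and 6.85 in inflamed mucosa and between 6.25 and 6.40 in 3 normal arrays, and was 7.66 in normal mucosa 1. That of 9 NK and cytotoxic markers lay between 5.03 and 5.22 in tumours, between 5.21 and 5.50 in inflamed mucosa and between 5.25 and 5.56 in the same 3 normal arrays, and was 6.50 in normal mucosa 1. Cd8a, the coreceptor of the cells that read class I molecules, read 7.49 in normal mucosa 1 and no more than 6.52 in any other array. The T cell list was mixed against normal mucosa, with 1 of 9 higher and 2 lower in tumours, and 2 higher and 1 lower in inflamed mucosa. The marker that rose in tumours was Thy1 (1.06 ± 0.24, limma, adjusted p = 0.00409). Of the NK and cytotoxic markers, 3 of 9 were lower in tumours (1 without normal mucosa 1), none was higher, and none was called in inflamed mucosa. Normal mucosa 6, the other array high in Tap1, had levels of 6.33 and 5.25 for these lists, close to those of the normal males. Against normal mucosa, macrophage and dendritic markers ran opposite to the 10 genes, with 9 of 10 higher in tumours and 9 of 10 higher in inflamed mucosa. Between tumours and inflamed mucosa their median difference was -0.79, below 0 like that of the 10 genes, with 1 of 10 called lower (7 without normal mucosa 1). Their mean level was 7.71 in normal mucosa 1 and between 6.47 and 6.98 in the other normal arrays. The part of these markers in the results was not tested.

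Stromal markers also rose in both tissues cut from prolapses, 6 of 6 fibroblast, 6 of 6 endothelial and 6 of 6 smooth muscle genes in tumours and in inflamed mucosa alike. Without normal mucosa 1 the fibroblast count in tumours was 5 of 6, since Lum lost its call (1.11, limma, adjusted p = 0.0714). The mean smooth muscle level lay between 8.97 and 9.34 in tumours, between 10.94 and 11.99 in inflamed mucosa and between 6.30 and 8.26 in normal mucosa. Of the 8 mature colonocyte markers, 8 were lower in tumours and 5 in inflamed mucosa than in normal mucosa. Between tumours and inflamed mucosa, the comparison in which B2m was called, 7 of the 8 colonocyte markers (median -1.16) and 5 of the 6 smooth muscle genes (median -2.39) were lower. Neutrophil markers were higher in tumours in 6 of 7 genes, against inflamed mucosa (median 2.31) as against normal mucosa (median 2.21), while inflamed against normal mucosa had 1 higher and 1 lower. B and plasma cell markers were higher than in normal mucosa in 3 of 7 genes in tumours and in 6 of 7 in inflamed mucosa (median 1.87). Of the 9 pan-epithelial markers, 3 were lower and 1 higher in tumours, and 5 were lower and none higher in inflamed mucosa. Without normal mucosa 1, the lower counts were 2 in tumours and 3 in inflamed mucosa. Whether these shares set the levels of the 10 genes was not tested.

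Among the class I heavy chains, which hold the peptide, 10 of 20 listed genes had a cluster of their own. The classical chains H2-K1 and H2-D1, named together on shared clusters, were not analysed here. In tumours 5 of the 10 measured chains were lower than in normal mucosa and 1 was higher, with a median of -0.44 (4 lower and a median of -0.26 without normal mucosa 1). H2-Q2 was measured at 8.12, 8.11, 8.13, 7.91 and 7.96 in tumours, at 8.60, 8.63, 8.34 and 8.60 in inflamed mucosa, and at 10.19, 10.05, 10.14 and 9.70 in normal mucosa. Its groups did not overlap, and all 4 normal arrays, males included, were far above the rest. H2-Q2 differed by -1.97 ± 0.11 between tumours and normal mucosa (limma, adjusted p = 3.68e-08) and by -0.50 ± 0.11 between tumours and inflamed mucosa (limma, adjusted p = 0.0129), lower in tumours both times. H2-Q4 (-1.16 ± 0.27, limma, adjusted p = 0.00436) and H2-T24 (-1.29 ± 0.37, limma, adjusted p = 0.0171) were also lower in tumours. Mr1, a class I-like molecule that presents microbial vitamin metabolites, was the 1 that rose, by 1.35 ± 0.27 in tumours (limma, adjusted p = 0.00188) and by 1.91 ± 0.29 in inflamed mucosa (limma, adjusted p = 0.000351). The chains of this family are alike in sequence, and their probes may read each other.

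General chaperones of the endoplasmic reticulum and the constitutive proteasome core did not follow the 10 genes. Of 9 loading and chaperone genes, 6 were higher and 1, Tapbpl, lower in tumours than in normal mucosa, and 5 were higher and 1 lower in inflamed mucosa, with medians of 0.37 and 0.40. P4hb, a disulphide isomerase, rose by 0.77 ± 0.10 (limma, adjusted p = 5.18e-05), Hspa5, the chaperone BiP, by 0.55 ± 0.10 (limma, adjusted p = 0.000647) and Calr, calreticulin of the peptide loading complex, by 0.30 ± 0.08 (limma, adjusted p = 0.0122) in tumours. Of 14 genes of the constitutive core, 7 were higher and none lower in tumours against normal mucosa, none was called in inflamed mucosa, and 3 were higher in tumours than in inflamed mucosa, with medians of 0.33, 0.08 and 0.19. Psma7, a subunit of the outer ring, rose by 0.76 ± 0.15 against normal (limma, adjusted p = 0.00165) and by 0.68 ± 0.15 against inflamed mucosa (limma, adjusted p = 0.0141). Of 9 activator and assembly genes, 3 were higher and 1 lower in tumours, with the assembly chaperones Psmg4 (0.86 ± 0.13, limma, adjusted p = 0.000218) and Psmg1 (0.80 ± 0.16, limma, adjusted p = 0.00216) among the rises. Of 6 measured cytosolic and other peptidases, 2 rose in tumours, Blmh (0.79 ± 0.18, limma, adjusted p = 0.0045) and Thop1 (0.40 ± 0.13, limma, adjusted p = 0.027), of which Thop1 lost the call without normal mucosa 1 (0.36, limma, adjusted p = 0.0685).

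Genes that regulate the pathway were lower where they were called. Of 17 measured regulators and interferon gamma signalling genes, 8 were lower in tumours and 6 in inflamed mucosa than in normal mucosa. None was higher, and the medians were -0.42 and -0.40. Without normal mucosa 1, 8 and 6 were also lower, and the medians were -0.30 and -0.29. Irf1, a transcription factor that binds interferon response elements of class I pathway genes, read 8.93, 9.03, 9.46, 9.44 and 8.88 in tumours, 9.75, 9.55, 9.71 and 9.44 in inflamed mucosa, and 11.19, 10.41, 10.24 and 9.98 in normal mucosa. Its normal values lay above all others, and the tumour minus normal difference was -1.31 ± 0.21 (limma, adjusted p = 0.000296). Ifngr1, the ligand-binding chain of the interferon gamma receptor, fell by 1.01 in tumours (-1.01 ± 0.11, limma, adjusted p = 1.33e-05), Rfxank, a subunit of the RFX complex on MHC promoters, by 1.13 (-1.13 ± 0.14, limma, adjusted p = 5.06e-05) and Relb, a subunit of NF-κB, by 0.79 (-0.79 ± 0.12, limma, adjusted p = 0.000184). Stat2, which works with Irf9 downstream of type I interferon receptors, fell by 1.35 (-1.35 ± 0.34, limma, adjusted p = 0.00808). Ifng itself lay between 5.55 and 5.68 in tumours, between 5.68 and 5.88 in inflamed mucosa and between 5.68 and 6.85 in normal mucosa, near the level of transcripts absent by sex, and did not pass in tumours (-0.42 ± 0.18, limma, adjusted p = 0.0812).

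Of 23 measured interferon-stimulated genes, 16 were lower in tumours than in normal mucosa and none was higher, with a median of -1.60. In inflamed mucosa 4 of the 23 were lower than in normal mucosa (median -0.98), and 3 were lower in tumours than in inflamed mucosa (median -0.93). The inflamed count lies close to the 13% of all genes called lower there. Without normal mucosa 1 the counts of lower genes were 11, 2 and 5, the medians were -1.26, -0.22 and -0.93, and 1 gene was higher in inflamed mucosa. The mean level of these 23 genes lay between 6.30 and 7.37 in tumours and between 7.15 and 8.37 in inflamed mucosa, and was 10.19, 7.19, 7.40 and 8.86 in the normal arrays, where both females were above both males. Irf7, a regulator of interferon genes, read 8.92, 8.67, 9.28, 9.53 and 8.22 in tumours, 10.24, 10.22, 10.19 and 11.49 in inflamed mucosa, and 12.12, 11.36, 11.63 and 11.89 in normal mucosa. The tumour minus normal difference of Irf7 was -2.83 ± 0.30 (limma, adjusted p = 9.7e-06), its tumour minus inflamed difference was -1.62 ± 0.30 (limma, adjusted p = 0.00482), and all tumours lay below all other arrays. Of 6 measured class II presentation genes, 2 were lower in tumours, Ctss, the protease cathepsin S (-0.91 ± 0.12, limma, adjusted p = 5.42e-05), and H2-DMa, a chain of the class II peptide editor (-1.15 ± 0.40, limma, adjusted p = 0.0367), beside 19.4% of all genes called lower. Without normal mucosa 1 the call of H2-DMa was lost (-0.64, limma, adjusted p = 0.0735), and the median of the class II genes was -0.21, against -0.73 with it.

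The 10 genes varied together to different degrees. Over 13 arrays Pearson's r was 0.99 between Psmb8 and Tap2, 0.94 between Psmb8 and Psmb9, 0.93 between Tap1 and Psmb9 and 0.91 between Tap1 and Psmb8, and it was 0.13 between Tap1 and Erap1. With each group's mean taken out, r was 0.99 for Psmb8 and Tap2, 0.89 for Tap1 and Psmb9, and 0.22 for Tap1 and Tapbp. These correlations are descriptions over 13 arrays that share groups, and normal mucosa 1 is the highest array in most of these genes. All other genes measured were ranked by Pearson's r over 13 arrays with the mean standardised profile of the 10. The highest were Parp9 (0.972), H2-Q4 (0.971), Adar (0.965), Ogfr (0.958), Herc6 (0.956), Uba7 (0.953), Abca13 (0.953), Helz2 (0.952), Oas1a (0.951) and H2-T24 (0.951).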

How the data were processed

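The values are deposited log2 RMA expression values per transcript cluster, which the authors computed in Expression Console (version 1.1) from scans read in GeneChip Command Console (version 2.0), per the labels and the design text. RMA brings arrays to a common distribution, which takes out differences in total RNA and compresses those of dim genes. Array medians lay between 6.41 and 6.59. No counting depth exists for arrays, and their number limits the precision.

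Of 35556 clusters, 21789 name 1 gene, 1621 name several and 12146 are not listed in the platform annotation. The highest-mean cluster was kept per gene, which gave 19938 genes. The test was limma's (version 3.58.1, R 4.3.3), by lmFit and eBayes in 1 fit of the 3 groups without a block, with Benjamini-Hochberg adjustment over all genes. The 10 genes, the gene lists and the tests were chosen with earlier results of these data known. The lists hold 197 genes, 175 of them measured, and the text names from each list genes with the smallest adjusted p. Named genes also include proteasome partners, Psme2, Psme3, Irf1, Ifng, and the 10 genes most like the profile. Stat2, Calr and Cd8a were picked after their values were seen. The fit was tested on simulated data.

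Tumour and inflamed arrays of 1 number deviated together from their group means (r = 0.319, 0.198, 0.199 and 0.387 over genes) and were treated as paired by number in the blocked alternatives alone, while normal arrays were not (r from -0.126 to 0.0413 with same-numbered others). Promoter sequences are from RefSeq, GRCm38.p6, and windows of Tap2 and Nlrc5 were not used here. No source used here gives the array's own genome build. Alternatives were a fixed or random replicate block, a covariate for sex or for age, fits of 2 groups only, leaving out the dimmest 25% of genes, other scalings, every cluster, other variance settings, array weights, each sex, other clusters of a gene and leaving out each array.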

Additional observations from a re-analysis of the deposited data

Results flagged for a closer look

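Single arrays far from the rest of their group were looked for in 72 group and gene or group and marker list combinations, and 10 were found, of which 4 were normal mucosa 1. Chance alone gives about 1 such array in 20 groups. Among the 10 genes, Tap2 read 8.01 in inflamed mucosa 3, where the nearest inflamed array read 8.36, and Psme1 read 10.43 in normal mucosa 1, where the nearest normal array read 9.91. Psmb8 minus Psmb5 was -4.70 in adenocarcinoma 1 (nearest tumour -4.27) and -4.08 in inflamed mucosa 3 (nearest inflamed array -3.55). In normal mucosa 1 the mean T cell marker level was 7.66 (nearest 6.40), the neutrophil level 7.81 (nearest 6.79) and the leukocyte level 9.01 (nearest 7.09). The mature colonocyte level was 12.52 in normal mucosa 2 (nearest 12.31), the fibroblast level 7.93 in normal mucosa 6 (nearest 7.05), and the B and plasma cell level 7.52 in adenocarcinoma 6 (nearest tumour 8.53).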

How the results depend on the processing

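The counts of genes called lower in tumours against normal mucosa lay between 6 and 8 when single arrays were left out, those in inflamed against normal mucosa between 3 and 5, and tumours against inflamed mucosa gave 1 each time. In inflamed against normal mucosa 2 of the 10 were called with the 2 groups alone, where 8.72% of all genes were called lower. With arrays centred on the median of all 19938 genes, an alternative chosen after seeing the data, 8 were called. That centring moved the median of all genes to -0.28 and the share called lower to 47.7%. Its 8 calls thus stand against a larger background. In tumours against normal mucosa it called 9 of the 10 lower, against 43.2% of all genes. In tumours against inflamed mucosa 2 were called with the 2 groups alone, against 4.98% of all genes called lower. With the replicate block in the 4 pairs alone 2 were also called, against 5.89%. The replicate block changed no call other than those of Tap1 and Psmb8 given above. Of 854 values of single genes under the alternatives, 783 kept direction and side of the threshold, 20 lost the call, 20 gained one and 31 turned sign.

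Signs turned for Erap1 in tumours against normal mucosa with gene-median centring (-0.01) and in females (-0.11). In inflamed against normal mucosa they turned for Erap1 with that centring (-0.13), without normal mucosa 2 (-0.02, range -0.02 to 0.10) and in females (-0.02), and for Tap1 in males (0.37). For Nlrc5 between tumour and inflamed mucosa, 0.00 became -0.03 with the replicate block, -0.05 with sex, -0.04 with array weights, 0.00 with cyclic loess and in the pairs alone, and -0.09 to 0.05 with single arrays left out. Of its other clusters, 10574153 was at 0.01, and 17 turned sign, at -0.63, -0.03, -0.11, -0.34, -0.60, -0.24, -0.35, -0.76, -0.08, -0.13, -0.51, -0.26, -0.18, -0.07, -0.38, -0.30 and -0.25. The causes were not tested.

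Alternatives to the sex contrasts were added after seeing the data. In the contrast between the sexes of tumour minus normal, Tap1 came to -1.96 without normal mucosa 1 and -2.78 without normal mucosa 6. The female minus male contrast in normal mucosa called 0 with array weights and 0 to 4 with single arrays left out (0 without normal mucosa 2 or 4, and 4 without normal mucosa 6). Also added were the proteasome partner tests with 1 array left out. Tests that themselves lost an inflamed or normal array gave adjusted p above the threshold, since fewer arrays allow fewer permutations, with directions kept. Psmb8 minus Psmb5 then ranged from -1.87 to -1.32 (tumour minus normal), -1.23 to -0.68 (inflamed minus normal) and -0.78 to -0.54 (tumour minus inflamed). Psmb9 minus Psmb6 ranged from -1.78 to -1.09, -0.95 to -0.26 and -0.90 to -0.72, and Psmb10 minus Psmb7 from -1.37 to -1.03, -1.11 to -0.77 and -0.35 to -0.19 in the same comparisons.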
